A study of Rattus norvegicus with 20 samples.

Results

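The comparison described here sets globular bushy cells of rats at postnatal day 21 (P21) against the same cells at postnatal day 3 (P3), across all genes measured. It rests on all 5 P21 arrays and all 6 P3 arrays, 11 of the 20 arrays of the series. The arrays of the remaining age, P8, took no part in the estimates. Globular bushy cells lie in the ventral cochlear nucleus, and the labels describe the P3 cells as taken just after calyx formation and the P21 cells as carrying a mature calyx. All animals were Sprague Dawley rats with no genetic change named. Each received Cholera toxin B, a tracer carried back along axons, into the medial nucleus of the trapezoid body on the other side and was killed 24 h later. Per animal 200 labelled cells were cut by laser from frozen sections of 12 µm, and their RNA was amplified linearly before it was hybridised to an array. The labels call the arrays biological replicates, and the p-values measure the spread between these animals.

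A globular bushy cell receives auditory nerve input on its cell body and sends a thick axon to the opposite side of the brainstem, where each axon ends as a calyx of Held, one of the largest nerve terminals of the brain. The calyx forms in the first postnatal days and hearing begins later, so that the mature cell has to relay sound at high rates with precise timing. Such relay neurons are known for low-threshold and fast potassium channels, calcium-binding proteins, vesicle proteins for rapid release and a heavily myelinated axon.

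Levels are given as log2(intensity + 1), where intensity is the deposited linear value of a probe set, and a change is the mean at P21 minus the mean at P3 on that scale with its standard error (SE). A change of 1 is a 2-fold change. A gene is represented by its brightest tested probe set, and it was called when its adjusted p, from limma with Benjamini-Hochberg adjustment over all 15141 probe sets tested, was under 0.05. Levels below log2 4, an intensity of 15, are dim, and the size of a change from such a level depends on the added 1.

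The ages differed in a large share of the genes measured. Of 11544 genes tested, 2859 were higher at P21 (24.8%) and 2644 were lower (22.9%), so that 47.7% were called and 6041 were not. By probe set the called share was 45.5% of 15141. In 31.9% of the genes the 5 P21 arrays and the 6 P3 arrays did not overlap, 1980 with P21 above (17.2%) and 1705 with P21 below (14.8%). Most called changes were moderate. At least 2-fold changes were found in 1108 of the higher and 1318 of the lower genes, at least 4-fold changes in 235 and 349, and at least 8-fold changes in 60 and 83. At 16-fold the order turned, with 23 higher and 15 lower genes. There were 41 genes above log2 4 on every P21 array and on no P3 array, and 64 genes with the reverse pattern. The median change over all genes was 0.04. The spread between replicates was wider at P21 (median SD 0.32, n = 5) than at P3 (median SD 0.26, n = 6), and 62.8% of the genes had the larger SD at P21. The plot of mean levels shows the called genes on both sides of the diagonal over the whole range of levels.

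**Figure D1:**
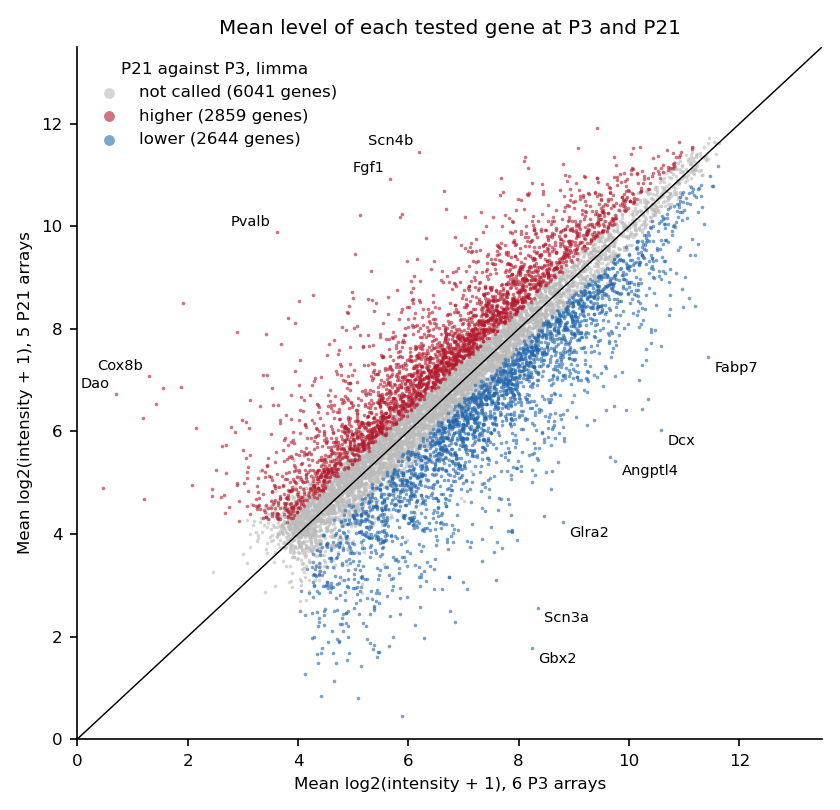
Mean level of each of 11544 tested genes on the 6 P3 arrays (x axis) and the 5 P21 arrays (y axis), both as log2(intensity + 1). The 2859 genes called higher lie above the diagonal and the 2644 called lower lie below it, and labelled genes are among the largest changes named in the text.

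Facts of the arrays bear on every result that follows. Correlations across probe sets were 0.922 to 0.970 within P3, 0.918 to 0.944 within P21 and 0.788 to 0.846 between the ages. The first principal component held 57.7% of the variance and separated the ages. On the next one (7.58%) P21 replicate 1 stood apart at 56.2, against -24.0 to 22.0 for the other arrays. GAPDH control probe sets at the 3' end of the transcript exceeded those at its 5' end by 3.99 ± 0.66 at P21 (SD, n = 5), which was more than the 2.91 ± 0.27 of P3 (SD, n = 6). The exact permutation test gave p = 0.002165, the smallest value this design allows, or 0.0108 after adjustment over 5 measures. Such a gap can widen where amplified RNA is truncated, and truncation was not tested here. With the GAPDH difference as a covariate 1848 probe sets were higher and 1831 lower, against 3492 and 3395 without it. The same difference for actin went the other way, at 4.70 for P3 and 4.32 for P21. Actin, the median intensity, the share of probe sets above log2 4 and the spike-in level did not pass (lowest adjusted p = 0.595, exact permutation test). Oligodendrocyte and myelin markers averaged 5.03 to 5.86 on the P3 arrays and 7.50 to 8.19 on the P21 arrays, and 23 of the 25 tested were higher at P21 with 0 lower. At P3, 3 of them were at or below log2 4 on every array. For comparison with the marker counts, 24.8% of all genes were higher and 22.9% lower. The precursor markers (9 tested) were higher in 1 and lower in 7, the astrocyte markers (18) in 5 and 5, microglia (15) in 1 and 3 (2 higher without P3 replicate 3 and 5 lower without P3 replicate 1), endothelium (21) in 3 and 2, inhibitory neurons (8) in 0 and 5, granule cells (10) in 2 and 2, Schwann cells (7) in 1 and 3, choroid plexus (8) in 1 and 1, and blood (4) in 1 and 0. With the oligodendrocyte mean as a covariate 3 probe sets were higher and 0 lower, and since that mean separates the ages, its part and that of age cannot be told apart.

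Markers of the labelled cells and of other cells were set beside each other. Of 22 tested genes typical of bushy cells and fast auditory neurons, 17 were higher at P21 (77.3%) and 1 was lower (4.55%). Over all genes the shares were 24.8% and 22.9%. The bushy cell list was chosen with earlier results of these data known, and a rise with age does not show which cells were cut. Slc17a6, the vesicular glutamate transporter of brainstem neurons, averaged 11.13 at P3 and 11.28 at P21 and was not called, an excitatory marker near the top of the scale at both ages. Slc17a7, the transporter of the same kind that is added with age, rose from 7.38 to 8.66. Gad1 and Slc32a1, genes of inhibitory neurons, stood at 9.42 and 7.33 at P3 and 8.42 and 6.36 at P21, and the mean of the 8 inhibitory neuron markers was lower on every P21 array than on any P3 array. The astrocyte genes Aqp4 and Gfap were also bright at P3, at 10.76 and 9.44, and were not called (changes of -0.33 and 0.56). In cells cut from tissue, fewer cells of a type and less RNA per cell cannot be told apart.

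**Figure D2:**
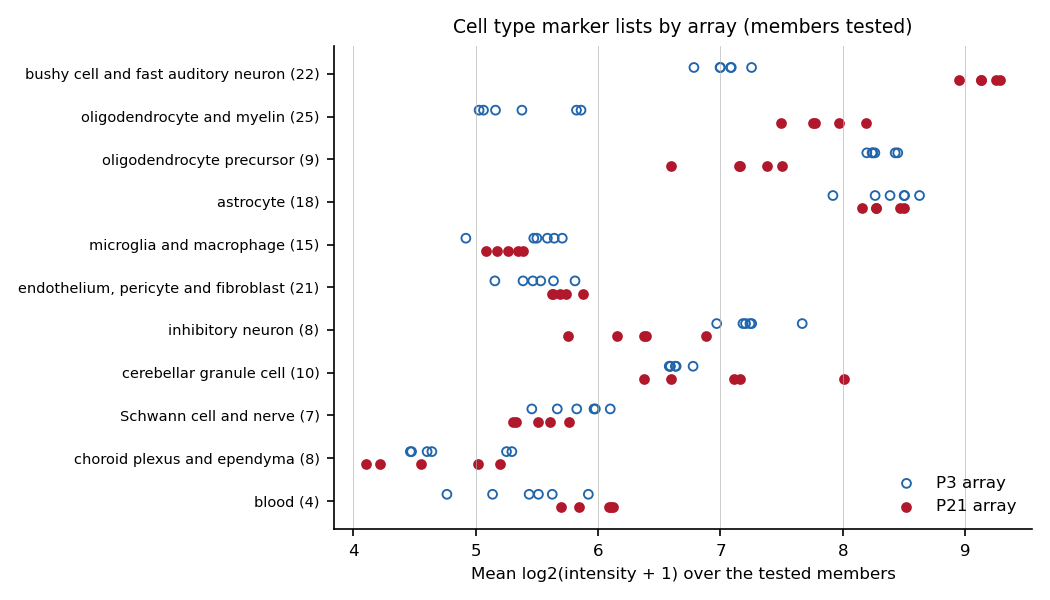
Mean log2(intensity + 1) over the tested members of the bushy cell list and of each marker list of another cell type (y axis, members tested in brackets), with 1 open point per P3 array and 1 filled point per P21 array. The bushy cell and oligodendrocyte means are higher at P21 without overlap, and the oligodendrocyte precursor and inhibitory neuron means are lower without overlap (6.97 to 7.67 at P3 and 5.75 to 6.88 at P21 for the latter), while the astrocyte means overlap between 7.92 and 8.63 at P3 and 8.15 and 8.50 at P21.

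Promoter sequences of the genes with the largest changes are shown because they differ widely in CpG content, the feature by which mammalian promoters are usually divided into classes. The rule took the 2 largest rises and the 2 largest falls that have an entry in the RefSeq promoter table of rat assembly GRCr8. Each stretch holds 250 bases before the transcription start and 50 after it, 5′ to 3′ on the strand of the gene, with CpG dinucleotides in capitals. All 4 genes lie on the minus strand. Pvalb (parvalbumin) is at chr7:111666240-111666539, Dao (D-amino acid oxidase) at chr12:48273251-48273550, Gbx2 (a homeobox factor) at chr9:97959834-97960133 and Scn3a (a sodium channel) at chr3:70666149-70666448.
Pvalb: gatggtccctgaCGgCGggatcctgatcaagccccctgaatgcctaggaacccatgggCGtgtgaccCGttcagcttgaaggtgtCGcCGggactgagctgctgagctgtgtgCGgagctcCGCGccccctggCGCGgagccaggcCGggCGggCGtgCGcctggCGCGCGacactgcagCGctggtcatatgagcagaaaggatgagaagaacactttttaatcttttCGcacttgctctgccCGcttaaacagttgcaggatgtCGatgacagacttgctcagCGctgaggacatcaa
Dao: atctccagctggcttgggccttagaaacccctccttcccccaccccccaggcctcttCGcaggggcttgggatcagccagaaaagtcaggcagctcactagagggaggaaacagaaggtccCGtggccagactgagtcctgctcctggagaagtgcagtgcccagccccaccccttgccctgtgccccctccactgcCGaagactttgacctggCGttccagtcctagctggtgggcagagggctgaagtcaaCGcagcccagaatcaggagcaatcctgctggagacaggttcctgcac
Gbx2: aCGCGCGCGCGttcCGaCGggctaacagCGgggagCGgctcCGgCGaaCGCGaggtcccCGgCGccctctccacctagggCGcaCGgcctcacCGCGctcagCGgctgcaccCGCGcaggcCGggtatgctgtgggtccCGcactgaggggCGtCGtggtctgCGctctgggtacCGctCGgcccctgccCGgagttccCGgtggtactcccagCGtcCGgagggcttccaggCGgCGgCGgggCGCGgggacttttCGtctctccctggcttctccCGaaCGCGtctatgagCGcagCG
Scn3a: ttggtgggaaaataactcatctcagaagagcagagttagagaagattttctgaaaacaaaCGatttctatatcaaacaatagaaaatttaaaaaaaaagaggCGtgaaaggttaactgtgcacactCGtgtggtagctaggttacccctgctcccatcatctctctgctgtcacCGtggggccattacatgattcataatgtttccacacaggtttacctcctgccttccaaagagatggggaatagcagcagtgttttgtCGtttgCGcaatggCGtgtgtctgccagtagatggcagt

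The promoter of Gbx2 holds 44 CpG dinucleotides in its 300 bases at a GC content of 73.7%, and that of Pvalb holds 23 at 60.7%. Dao has 5 at nearly the same GC content, 61.7%, and Scn3a has 7 at 43.3%. Each direction thus had a gene with many CpG dinucleotides and a gene with few. Among 9566 tested genes with a promoter in the table, the median ratio of observed to expected CpG was 0.758 in the 2382 genes called higher, 0.787 in the 2177 called lower and 0.757 in the 5007 not called. Their median GC contents were 61.0%, 62.3% and 60.3%. The GC box (GGGCGG, either strand) was found in 62.6% of promoters of higher genes and 66.2% of those of lower genes, against 61.8% of all 9566. It occurs in the Pvalb stretch and in none of the other 3. The TATA box (TATAAA, either strand) was as common in higher genes (7.09%) as in lower genes (7.07%). A match is a description of letters in the window, and no test was made.

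The largest rises joined genes of fast neurons with genes of myelin. Pvalb encodes a calcium buffer of fast-spiking neurons. Its level at P3 ran from 1.68 (lowest) over 3.85 (median) to 5.32 (highest), and at P21 it was 9.63, 10.10, 10.06, 9.94 and 9.74. The P3 arrays were spread over more than 3 log2 units and the P21 arrays over less than 1, with no overlap, and the change was 6.28 ± 0.59 (SE, adjusted p = 4.55e-06). Scn4b, the sodium channel beta subunit linked to resurgent current, rose from 5.38, 6.27 and 6.61 (lowest, median, highest) to 11.68, 11.61, 11.61, 11.47 and 10.91. All arrays were bright at both ages and the change of 5.26 ± 0.23 (SE, adjusted p = 1.89e-08) does not rest on dim values. The growth factor Fgf1 went from 4.79, 5.64 and 6.52 to 10.99, 11.05, 11.31, 10.59 and 10.73, a change of 5.26 ± 0.29 (SE, adjusted p = 7.65e-08). Dao, which degrades D-serine, was at 0.26, 0.71 and 1.38 at P3 and at 7.15, 6.56, 6.62, 6.53 and 6.80 at P21. Its P3 values are below the level that counts as detected here, so its change of 6.03 ± 0.22 (SE, adjusted p = 7.10e-09) has no exact size. The smallest adjusted p of all belonged to Josd2, a deubiquitinating enzyme, which rose by 4.98 ± 0.13 (SE, adjusted p = 3.02e-10). Its P3 values of 1.68 to 2.10 were also dim, so that it passed the filter only through the P21 arrays. Its change has no exact size either, and its p rests in part on the spread of dim values.

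Genes of other cells stood among these rises. Ermn, Opalin and Mobp, all of oligodendrocytes, rose by 6.58, 5.30 and 5.09. S1pr5, a lipid receptor known from oligodendrocytes, rose by 5.10, and Gjb6, a gap junction protein of astrocytes, by 5.03. Ermn did not exceed log2 4 on any P3 array (0.49 to 4.00) and passed the filter only through the P21 arrays. Gjb6 was dim on most P3 arrays (0.77 to 4.19). Neither change has an exact size. The 18 tested astrocyte markers, Gjb6 among them, were higher in 5 and lower in 5 (27.8% each). The inositol transporter Slc5a11 and the prostaglandin synthase Ptgds rose by 5.07 and 4.42. Gabra6, a GABA receptor subunit typical of cerebellar granule cells, rose by 4.48 ± 0.65 (SE, adjusted p = 1.36e-04), with 8.47, 7.23, 5.44, 8.13 and 10.21 on the P21 arrays. Its P3 values of 2.38 to 3.93 were dim. It thus passed the filter only through the P21 arrays, and its change has no exact size. Replicate 5 was highest. It was also highest in the mean of the 10 granule cell markers, at 8.01. The other P21 arrays had 6.38 to 7.16 and the P3 arrays 6.58 to 6.78. Gabra6 is itself among these 10 markers, so its own level enters that mean. Of the 10 markers 2 were higher and 2 lower, with changes from -1.54 to 4.48 and a median of -0.08. Inhbb, a subunit of activin, rose by 4.53 ± 0.27 (SE, adjusted p = 1.42e-07), and Inhba, a further activin subunit that neuronal activity is known to induce, by 3.60 ± 0.40 (SE, adjusted p = 1.61e-05). For Inhba a dimmer probe set rose by 0.81.

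Among the smallest p-values in the upward direction were genes of lipid and amino acid chemistry. Nat8l, which makes N-acetylaspartate, rose by 4.04 ± 0.16 (SE, adjusted p = 1.13e-08). Gpd1, the cytosolic glycerol phosphate dehydrogenase, rose by 2.77 ± 0.11 (SE, adjusted p = 1.13e-08), and its 5 P21 values lay within 7.80 to 7.94. Hhatl rose by 4.39, from dim P3 levels of 3.62 to 3.95, and Septin4, a filament protein, by 3.35. Ppp1r14a, an inhibitor of myosin phosphatase, and Rab37, a vesicle GTPase, rose from dim levels of 0.46 and 1.21 to 4.91 and 4.68.

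**Figure D3:**
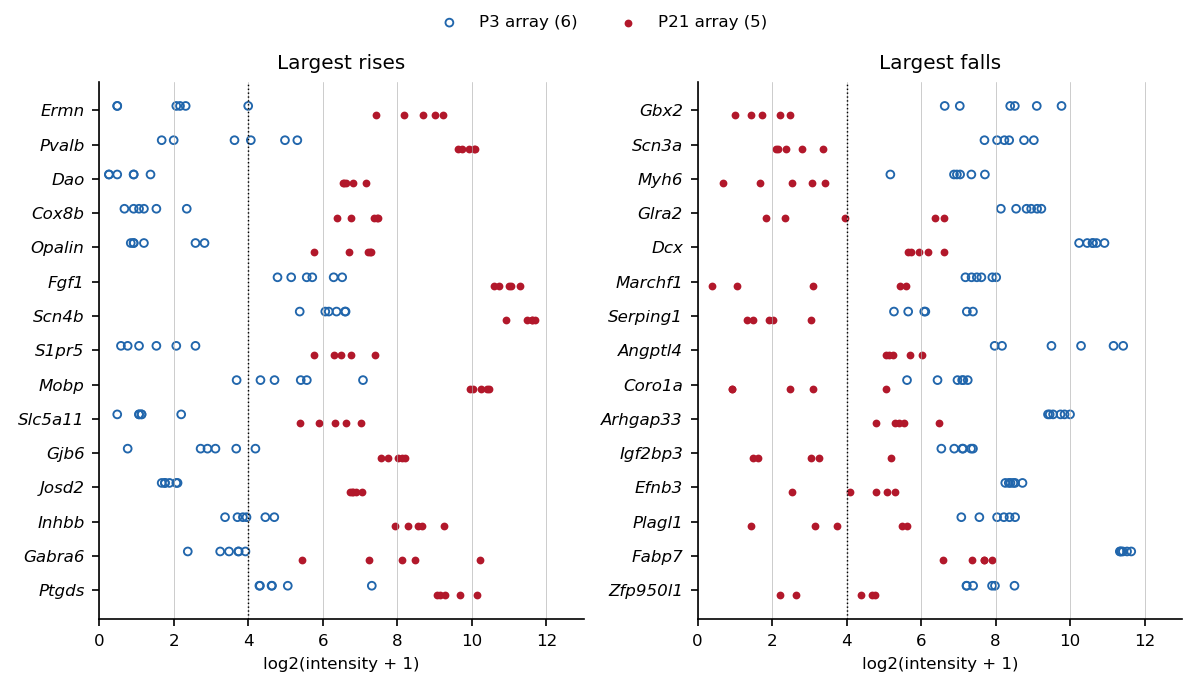
Level of the 15 genes with the largest rises and the 15 with the largest falls on each array, as log2(intensity + 1) on the x axis, with open points for the 6 P3 arrays and filled points for the 5 P21 arrays and a dotted line at the filter level of log2 4. By the rule of choice no gene shows overlap between the ages; Dao and Cox8b rose from levels near 1, whereas Scn4b and Fgf1 were above 4 on every array.

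The largest falls included genes of early development beside genes with other roles. Gbx2, a homeobox factor of the early hindbrain, was at 6.63, 8.45 and 9.77 (lowest, median, highest) at P3 and at 1.00, 1.43, 2.49, 2.20 and 1.72 at P21. Every P21 array was dim and every P3 array was bright, and the change was -6.47 ± 0.51 (SE, adjusted p = 1.27e-06). A dimmer probe set of Gbx2 fell by 2.17. Dcx, a microtubule protein of migrating and growing neurons, went from 10.24, 10.60 and 10.92 to 6.62, 5.94, 6.17, 5.65 and 5.74, a change of -4.57 ± 0.19 (SE, adjusted p = 1.13e-08). Mycn, a growth-promoting transcription factor, changed by -3.72 ± 0.15 and Dpysl5, a collapsin response mediator, by -3.79 ± 0.14 (SE, adjusted p = 1.13e-08 for each). Arhgap33 changed by -4.16, and Igf2bp3, an RNA-binding protein of fetal tissue, by -4.14.

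Some of the largest falls were uneven between animals. Marchf1, a ubiquitin ligase, was at 7.19 to 8.01 at P3 and at 0.38, 3.09, 1.07, 5.42 and 5.60 at P21. Plagl1, an imprinted zinc finger factor, stood at 7.08 to 8.52 at P3 and at 5.48, 3.15, 1.43, 3.74 and 5.61 at P21. In both genes the P21 arrays differed among themselves by over 4 log2 units and still lay below every P3 array. Angptl4, a secreted lipase inhibitor, was variable at P3, from 7.97 to 11.42, and lay at 5.05 to 6.03 at P21. Serping1, Coro1a, Myh6 and Zfp950l1 completed the list with changes of -4.32, -4.26, -4.57 and -3.97.

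Genes of axon growth fell as a group. Of 28 tested, 19 were lower at P21 (67.9%) and 2 were higher (7.14%), with a median change of -1.32. Over all genes 22.9% were lower and 24.8% higher, with a median change of 0.04. Sox4, a transcription factor of young neurons, fell by 2.66 ± 0.14 (SE, adjusted p = 5.49e-08), and 3 of its other 4 probe sets also fell. Crmp1 fell by 2.18 ± 0.12 (SE, adjusted p = 7.70e-08). Fabp7, a fatty acid binding protein that is also a marker of radial glia and immature astrocytes, fell by 3.99 ± 0.21 (SE, adjusted p = 6.01e-08). Gap43, the growth cone protein, was at 11.05 to 11.40 at P3 and at 9.04, 8.21, 7.08, 8.53 and 9.34 at P21, and was thus still bright in the mature cells. Marcksl1 and Stmn1 likewise stayed above 9 at P21 after changes of -1.76 and -0.95.

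In axon guidance 18 of 32 tested genes fell (56.2%, beside 22.9% over all genes) and 4 rose (12.5%, beside 24.8%), median change -0.68. The membrane ligand Efnb3 went from 8.26, 8.44 and 8.72 at P3 to 2.54, 5.09, 5.30, 4.80 and 4.08 at P21 (-4.09 ± 0.40, SE, adjusted p = 6.46e-06). The receptors Robo2, of Slit proteins, and Plxnc1, of a semaphorin, changed by -1.82 and -2.15, and the semaphorin Sema6a by -1.51. Sema4d, a further semaphorin, took the other direction with a rise of 2.23 ± 0.18 (SE, adjusted p = 1.34e-06), from 4.08 to 4.87 at P3 to 6.50 to 7.21 at P21, as did the semaphorin receptor Nrp2 (1.72 ± 0.18, SE). The 4 that rose were 2 without P3 replicate 4.

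Of 49 tested transcription factors of the neuronal and hindbrain lineages 31 fell (63.3%) and 5 rose (10.2%), with a median of -0.83. Over all genes 22.9% were lower and 24.8% higher. Bcl11b, a zinc finger factor, went from a mean of 7.69 to 4.69 (adjusted p = 2.33e-06), with a lower call in each of its probe sets, and the homeobox gene Meis1 by -1.56 ± 0.13 (SE, adjusted p = 2.26e-06). The LIM homeobox gene Lhx2 and the paired box gene Pax6 changed by -1.48 and -1.54. Esrra, a nuclear receptor that controls mitochondrial genes, rose against the group. It stood at 4.67, 4.89 and 5.29 at P3 and at 7.92, 7.57, 7.71, 7.39 and 7.67 at P21, a change of 2.71 ± 0.15 (SE, adjusted p = 7.22e-08) with no overlap. The count of 5 was 3 without any 1 of P3 replicates 2 and 5 and P21 replicates 1, 2 and 3. Klf9, a factor induced by thyroid hormone and glucocorticoids, rose by 1.95 ± 0.16 (SE, adjusted p = 1.39e-06).

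Regulators of chromatin moved in both directions, with 7 of 35 higher, 14 lower and a median of -0.25. The high-mobility group genes Hmgb3, Hmgn1 and Hmgn2 changed by -1.82, -1.61 and -1.41. Within Polycomb, which silences developmental genes, the 2 methyltransferases changed in opposite directions. Ezh2, the methyltransferase of dividing cells, was at 5.68, 5.96 and 6.45 at P3 and at 4.41, 4.99, 3.41, 3.93 and 4.79 at P21 (-1.70 ± 0.26, SE, adjusted p = 2.24e-04). Its relative Ezh1 went from 7.20, 7.60 and 7.89 to 9.49, 9.04, 9.09, 9.05 and 9.20 (1.60 ± 0.16, SE, adjusted p = 7.47e-06), although a dimmer probe set at 0.27 was not called. The chromobox genes Cbx7 and Cbx6 rose by 2.50 and 1.59, and Cbx7 varied more between the P3 animals (SD 0.88) than between the P21 animals (SD 0.11).

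RNA-binding proteins fell in 19 of 34 tested genes (55.9%) and rose in 4 (11.8%), with a median of -0.53. Over all genes 22.9% were lower and 24.8% higher. Celf5 changed by -2.64 ± 0.17 (SE, adjusted p = 2.47e-07) and the cold-induced Rbm3 by -1.99 ± 0.14 (SE, adjusted p = 6.03e-07). Igf2bp3 was at 6.54, 7.11 and 7.39 at P3 and at 3.05, 1.63, 3.26, 5.19 and 1.49 at P21, and Igf2bp2 fell by 1.99, although a dimmer probe set of it was not called. The muscleblind splicing factors Mbnl1 and Mbnl2, known to drive adult splicing patterns, rose by 1.77 ± 0.14 and 1.80 ± 0.15 (SE, adjusted p = 1.16e-06 and 1.86e-06), with a higher call in every tested probe set of each.

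Protein synthesis and cell division genes were lower at P21. Of 40 cytosolic ribosomal proteins 34 fell (85.0%) and 0 rose (median -0.86), beside 22.9% and 24.8% over all genes. In 32 of the 40 the P21 arrays lay below the P3 arrays without overlap, beside 14.8% over all genes. With all 20 arrays sharing the variance, 12 fell. Rplp0, of the ribosomal stalk, went from 8.84, 9.31 and 9.84 to 6.92, 7.09, 7.21, 7.44 and 7.73 (-2.02 ± 0.21, SE, adjusted p = 1.06e-05), and Rpsa and Rpl12 changed by -1.32 and -1.56. Ribosomal proteins have many processed copies in the genome, whose transcripts a probe set may share. Of 38 translation factors 19 fell and 3 rose (median -0.39), but with all 20 arrays 1 fell and 0 rose. Eif5a2 was among the 3 that rose in the fit of 11 arrays (1.38 ± 0.18, SE, adjusted p = 6.26e-05) and was not called with all 20 arrays. Of 41 cell cycle genes 31 fell (75.6%) and 2 rose (4.88%), with a median of -1.02. In 10 of the 41 the level was above log2 4 in fewer than 3 arrays of 1 age. Ccnb2, a mitotic cyclin, fell by 2.63 ± 0.22 (SE, adjusted p = 2.15e-06), and Ccnd1, a G1 cyclin, rose by 2.08 in its brightest probe set and also in the other 2. Over the same ages the mean of 9 oligodendrocyte precursor markers went from 8.20 to 8.45 at P3 to 6.60 to 7.51 at P21, and its part in the falls was not tested.

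Proteasome subunits mostly stayed uncalled, 30 of 38, with 3 higher (7.89%) and 5 lower (13.2%), beside 24.8% and 22.9% over all genes. The 3 higher ones were Psmc6, Psmc5 and Psmd12, all of the regulatory particle, with rises of 0.78, 0.96 and 0.73, and without P3 replicate 3 the count was 5. Of the 5 lower ones Psmb4 is a constitutive subunit (-0.44), and 4 belong to the interferon-inducible form. Psme1, a subunit of its activator, was at 8.11, 8.35 and 8.52 at P3 and at 5.53, 5.39, 5.25, 5.50 and 5.77 at P21 (-2.84 ± 0.14, SE, adjusted p = 4.82e-08). Psme2, its partner, changed by -1.19, and the catalytic subunits Psmb9 and Psmb8 by -3.71 ± 0.65 and -1.18 ± 0.42 (SE, adjusted p = 5.79e-04 and 0.0370). Psmb9 and Psmb8 were highest on P3 replicates 1 and 2, at 6.11 and 6.95 and at 6.63 and 7.55. Without those 2 arrays, an alternative chosen after seeing the data, Psmb9 changed by -3.01 (adjusted p = 0.00291) and Psmb8 by -0.62 (adjusted p = 0.106). Psmb9 was dim on every P21 array, with 3.70 on replicate 2 and at most 1.14 on the others, so its change has no exact size. With intensities below 16 set to 16, Psmb9 was not called. Leaving out 1 array at a time, Psmb8 was not called in 6 of the 11 fits (highest adjusted p = 0.0886, without P21 replicate 4).

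Of 42 chaperones 11 were higher (26.2%) and 8 lower, shares near those over all genes (24.8% and 22.9%). The small heat shock protein Hspb8 rose by 3.52 ± 0.17 (SE, adjusted p = 4.91e-08) in its brightest probe set, while another was not called (-0.02). Hspa4l and Dnajb9, a stress-inducible partner of the endoplasmic reticulum, rose by 1.74 and 1.66. Cct6a, Cct8 and Tcp1, subunits of the chaperonin that folds actin and tubulin, changed by -0.97, -0.74 and -0.66.

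Genes of energy metabolism were higher, mostly by small steps. Of 70 genes of oxidative phosphorylation 39 were higher (55.7%) and 0 lower, beside 24.8% and 22.9% over all genes, and their median change was 0.43. With all 20 arrays 10 were higher. Ndufs4 of complex I went from 7.72, 8.11 and 8.47 to 10.40, 10.34, 10.36, 10.52 and 10.13 (2.25 ± 0.17, SE, adjusted p = 8.60e-07), and the arrays of each age kept within 1 log2 unit. Sdha, the catalytic subunit of complex II, rose by 1.09 ± 0.11 (SE, adjusted p = 9.12e-06). Cox8b, a cytochrome oxidase subunit known from muscle and heart, was at 0.68, 1.14 and 2.35 at P3 and at 7.47, 7.37, 7.46, 6.37 and 6.75 at P21. No P3 array reached log2 4, while the ubiquitous form Cox8a stood at 11.38 and 11.34 and was not called (adjusted p = 0.872).

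Genes of fuel metabolism changed individually. Of 26 glycolysis genes 11 rose (42.3%) and 1 fell (3.85%), beside 24.8% and 22.9% over all genes, and their median change was 0.41. The gene that fell was Ldha, the lactate-forming dehydrogenase, from 9.38, 9.75 and 9.98 to 8.19, 7.78, 7.34, 7.94 and 7.54 (-1.99 ± 0.17, SE, adjusted p = 2.21e-06), whereas Ldhb at 0.30 ± 0.13 was not called (adjusted p = 0.0717). Without P21 replicate 5, 3 glycolysis genes were lower. Both phosphofructokinases, Pfkp and Pfkm, rose, by 1.50 and 1.45. Of 32 genes of the citric acid cycle and glutamate metabolism 16 rose and 5 fell (median 0.36). Gls2, a glutaminase, rose by 2.93 ± 0.17 (SE, adjusted p = 1.32e-07). The kinases that restrain pyruvate dehydrogenase changed in opposite directions, Pdk2 by 2.05 and Pdk1 by -1.13. In sterol and lipid synthesis 15 of 27 rose and 1 fell (median 0.50), among them the elongase Elovl5 (1.63 ± 0.17, SE) and the sterol carrier Stard4 (1.99 ± 0.24, SE), and the member that fell was Dhcr7, the last enzyme of cholesterol synthesis (-0.80 ± 0.16, SE). The oligodendrocyte marker mean was higher on the same arrays, and its part in these rises was not tested.

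Ion channel genes changed in both directions. Among 12 sodium channel genes 4 rose (33.3%) and 5 fell (41.7%), beside 24.8% and 22.9% over all genes. Scn3a, an alpha subunit of the developing brain, was at 7.70, 8.30 and 9.02 at P3 and at 3.36, 2.10, 2.38, 2.17 and 2.81 at P21 (-5.79 ± 0.28, SE, adjusted p = 3.55e-08). Scn9a and Scn2a, further alpha subunits, changed by -3.77 and -2.41, and Scn1a, the alpha subunit of fast-spiking neurons, rose by 2.32 ± 0.26 (SE, adjusted p = 1.96e-05). The mature node channel Scn8a did not pass the filter on low values, and its highest level on any array was 4.66. Fgf12 and Fgf13, which bind sodium channels inside the cell, moved apart by 1.35 and -1.66.

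Of 44 potassium channel genes 16 rose (36.4%) and 8 fell (18.2%), beside 24.8% and 22.9% over all genes. Their median change was 0.22. Kcna1, the low-threshold subunit that keeps bushy cells firing only once per input, went from 5.21, 5.89 and 6.42 to 10.16, 10.37, 10.34, 9.86 and 10.21 (4.34 ± 0.20, SE, adjusted p = 2.99e-08). Its partners Kcna2 and Kcnab2 rose by 2.62 and 2.56, and Kcnc1, the fast repolarising subunit, by 3.27. Kcns3, a silent subunit that modifies other channels, rose by 2.86 ± 0.19 (SE, adjusted p = 3.83e-07). Kcnq5, of the muscarine-sensitive current, changed by -2.09 ± 0.21 (SE, adjusted p = 7.92e-06), and Kcnma1, the large calcium-activated channel, by -1.07. Of 43 calcium channel, pump and buffer genes 17 rose (39.5%) and 12 fell (27.9%), beside 24.8% and 22.9% over all genes. Atp2b3, a calcium pump of the plasma membrane, and the release channels Itpr1 and Ryr2 rose by 1.96, 1.93 and 1.46, and the neuronal calcium sensors Ncald and Hpcal4 changed by -1.71 and -1.82.

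Of 63 genes of transmitter release 22 were higher (34.9%) and 15 lower (23.8%), with a median of 0.23. Over all genes the shares were 24.8% and 22.9%, so the lower share was near that over all genes. Vamp1, the vesicle SNARE of fast synapses, was at 8.62, 9.09 and 9.45 at P3 and at 11.89, 11.61, 11.74, 11.56 and 10.83 at P21 (2.44 ± 0.20, SE, adjusted p = 1.81e-06), and its other 2 probe sets were also called higher. The calcium sensor Syt3, the fusion ATPase Nsf with its adaptor Napa, and the endocytic GTPase Dnm1 rose by 1.81, 1.52, 1.44 and 1.45. Rab3d fell by 3.85 ± 0.27 (SE, adjusted p = 5.97e-07), to levels of 1.07 to 1.96 at P21. The active zone genes Erc1 and Rimbp2 changed by -2.22 and -1.30, and Syt5 and Synpr, a vesicle membrane protein, by -2.36 and -2.33. Syn2, a vesicle-clustering synapsin, rose by 1.98 in its brightest probe set while its other 2 were not called.

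Receptors for glutamate showed 12 of 34 higher (35.3%) and 11 lower (32.4%), with a median of 0.10. Over all genes the shares were 24.8% and 22.9%. Grin2c, an NMDA receptor subunit, rose by 2.59 ± 0.20 (SE, adjusted p = 1.24e-06), from 5.17 to 5.94 at P3 to 7.50 to 8.63 at P21. It is also a granule cell marker and was highest on P21 replicate 5. Gria3, an AMPA receptor subunit, rose by 1.74 ± 0.21 (SE, adjusted p = 3.50e-05), and Homer1, a scaffold, by 1.70. Cnih2, an AMPA receptor auxiliary subunit, went from 8.12, 8.55 and 8.67 to 4.43, 4.94, 4.68, 5.60 and 6.35 (-3.29 ± 0.29, SE, adjusted p = 3.03e-06). Shank2, a postsynaptic scaffold, and Grm3, a metabotropic receptor, changed by -1.81 and -2.66. Dlg4 was called in opposite directions by its probe sets, -1.75 in the brightest and 0.46 in another. Without P21 replicate 5 the higher members were 7, and without P21 replicates 1 and 5, left out together after seeing the data, 6 were higher and 9 lower.

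Glycine receptor subunits changed in opposite directions. Glra2, the fetal alpha subunit, was at 8.14, 8.89 and 9.23 at P3 and at 6.37, 3.96, 1.85, 2.35 and 6.62 at P21, bright on P21 replicates 1 and 5 and dim on the other 3 (-4.57 ± 0.78, SE, adjusted p = 4.88e-04). A dimmer probe set of Glra2 was not called (-0.29). Glra1, the adult alpha subunit, went from 2.58, 3.56 and 4.52 to 7.05, 5.37, 6.91, 6.92 and 6.30 (2.96 ± 0.38, SE, adjusted p = 5.07e-05), and Glrb, the shared beta subunit, rose by 1.86. Among GABA receptors Gabrd, an extrasynaptic subunit, rose by 2.39 and Gabra5 fell by 0.84. The chloride importer Slc12a2 and the exporter Slc12a5 both rose, by 0.67 ± 0.14 and 0.97 ± 0.16 (SE, adjusted p = 0.00193 and 4.71e-04).

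Matrix and axon genes included several large rises. Hapln4, a link protein of perineuronal nets, was at 5.44, 5.80 and 6.61 at P3 and at 10.28, 10.33, 10.61, 10.03 and 9.90 at P21 (4.34 ± 0.21, SE, adjusted p = 3.91e-08), and Acan, the net proteoglycan aggrecan, rose by 2.19 ± 0.16 (SE, adjusted p = 7.37e-07). Nptx1, a pentraxin that gathers AMPA receptors, rose by 3.64 ± 0.19 (SE, adjusted p = 6.11e-08). Vcan, the juvenile proteoglycan versican, and Cspg5 changed by -2.03 and -3.02. Over the whole list 9 of 27 rose (33.3%) and 10 fell (37.0%), beside 24.8% and 22.9% over all genes. Of 35 genes of the node, the paranode and the axonal cytoskeleton 14 rose and 5 fell (median 0.24). Cntnap1, the axonal partner of the paranodal junction, went from 2.87, 3.20 and 4.45 to 7.49, 7.17, 7.05, 6.86 and 6.90 (3.65 ± 0.26, SE, adjusted p = 6.39e-07), and Sptbn4, the nodal spectrin, rose by 2.30. Add2, an adducin of the membrane skeleton, changed by -3.35.

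Hormone and clock genes contributed a smaller set of changes. In the thyroid and steroid list 9 of 22 rose (40.9%) and 4 fell (18.2%), with a median of 0.51. Over all genes 24.8% were higher and 22.9% lower. The receptors for glucocorticoids and mineralocorticoids, Nr3c1 and Nr3c2, rose by 1.70 ± 0.20 and 2.11 ± 0.17 (SE, adjusted p = 2.50e-05 and 1.51e-06). Tsc22d3, a glucocorticoid-induced gene, rose from 8.22, 8.41 and 8.67 to 10.72, 10.77, 10.84, 10.74 and 10.40 (2.26 ± 0.13, SE, adjusted p = 9.81e-08). Fkbp5, which glucocorticoids also induce, went the other way in its 2 probe sets, by -0.86 and -2.88. The thyroid hormone receptors diverged, Thrb by 1.43 and Thra by -0.87. Of 15 clock genes 6 rose and 2 fell, and the 2 were 1 without any 1 of P3 replicates 2, 4, 5 and 6 and P21 replicates 2, 3 and 4. Hlf, Nr1d2 and Dbp, which are outputs or repressors of the clock, rose by 2.45, 2.00 and 1.56, and Nfil3, which opposes Dbp and Hlf at the same sites, fell by 1.12. The core factors Clock and Per2 were not called at -0.17 and -0.42 (adjusted p = 0.399 and 0.113), although a dimmer probe set of Clock rose by 1.33, and the time of day of the collections is not in the labels.

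Activity-regulated genes were mostly uncalled, 17 of 24, with 5 higher (20.8%) and 2 lower (8.33%). Over all genes 24.8% were higher and 22.9% lower. Dusp1, a phosphatase of the MAP kinase pathway, and Arc rose by 1.80 and 0.69, while Fos at -0.69 ± 0.34 and Egr1 at 0.27 ± 0.34 were not called (SE, adjusted p = 0.113 and 0.552).  In the BMP, FGF and neurotrophin list 9 of 37 rose (24.3%, near the 24.8% over all genes) and 13 fell (35.1%, beside 22.9%). Besides Fgf1, the growth factor Fgf9 rose by 1.66 ± 0.15 (SE, adjusted p = 2.50e-06). The signal carriers of BMP receptors diverged, Smad9 by 1.73 and Smad1 and Smad5 by -1.04 and -0.90. Ret, the receptor for glial-derived factors, changed by -1.97 in its brightest probe set and by -1.91 in the other. Of 22 genes of the fetal growth and imprinted network 11 fell and 2 rose. Nnat, of the endoplasmic reticulum, changed by -2.47 ± 0.14 and Cdkn1c by -2.25 ± 0.33 (SE, adjusted p = 7.70e-08 and 1.50e-04), and the members that rose were Impact (1.79) and Meg3 (1.05), a long non-coding RNA. In the oxygen, iron and antioxidant list 12 of 33 rose (36.4%) and 4 fell (12.1%), beside 24.8% and 22.9% over all genes. The iron exporter Slc40a1, the metal-binding protein Mt3 and the mitochondrial peroxiredoxin Prdx5 rose by 2.42, 1.52 and 1.45.

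**Figure D4:**
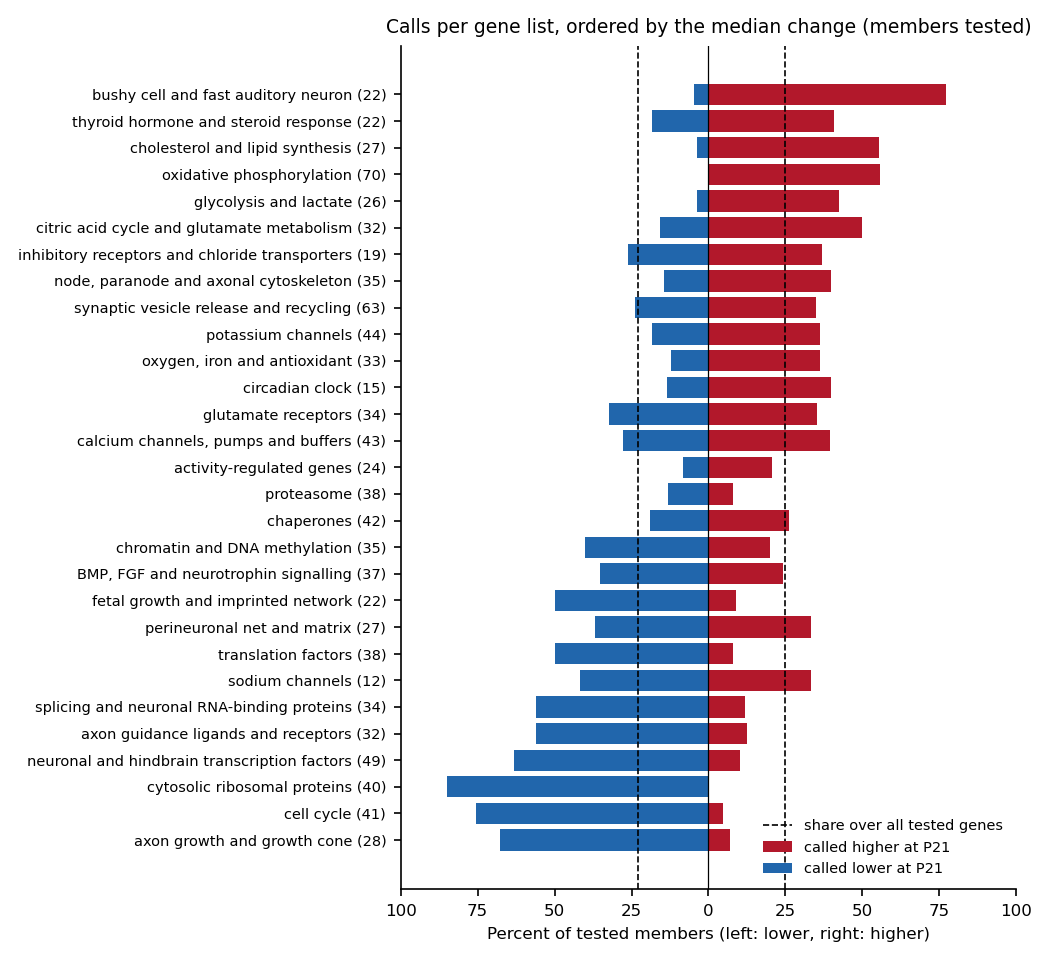
Share of the tested members of each of 29 gene lists called higher (right) or lower (left) at P21, in percent, ordered by the median change, with the shares over all tested genes (24.8% and 22.9%) as dashed lines. The bushy cell list reaches 77.3% higher at the top, and the ribosomal, cell cycle and axon growth lists at the bottom reach 85.0%, 75.6% and 67.9% lower.

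Opposite changes of relatives were examined in 51 pairs of paralogues, each an early or general member beside a late or specialised one, of which 38 had both members tested. In 9 pairs the early member fell and the late member rose. These were Scn2a and Scn1a, Scn3b and Scn4b, Glra2 and Glra1, Vamp2 and Vamp1, Cacna1b and Cacna1a, Tubb2b and Tubb4a, Eef1a1 and Eef1a2, Hdac2 and Hdac11, and Ezh2 and Ezh1. In 10 further pairs the late member alone rose and in 6 the early member alone fell. In 5 pairs both rose and in 2 both fell, 2 had neither called, in 2 the early member alone rose, and in 2 the late member alone fell. The late minus early difference within each array hardly depends on an array's scaling where both members are bright. At dim levels, as for Cox8b at P3, scaling does not cancel because of the added 1. The late minus early difference separated the ages in 18 of the 38 pairs in the stated direction and in 2 pairs in the reverse direction. Among single genes the ages did not overlap in 31.9%, and no such share was taken over other pairs. The pairs were chosen with earlier results of these data known.

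The beta subunits of the sodium channel gave the widest difference. Scn3b was at 9.49, 9.58 and 9.72 at P3 and at 6.63, 6.15, 5.95, 6.84 and 6.51 at P21 (-3.17 ± 0.16, SE, adjusted p = 5.49e-08), and the difference of Scn4b minus Scn3b moved by 8.43. For Glra1 minus Glra2 it moved by 7.54 and for Scn1a minus Scn2a by 4.73. The vesicle SNAREs and the presynaptic calcium channels differed in change by 3.42 and 2.29. In both of these pairs a dimmer probe set of a member was not called (Vamp2 at 0.11 and Cacna1a at 0.17), so that they rest on the brightest probe set. The elongation factors Eef1a1 and Eef1a2 changed by -0.70 ± 0.12 and 1.07 ± 0.24 (SE), the first in most cells and the latter mainly in nerve and muscle.

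Other pairs did not follow the order. Grin2b and Grin2a, NMDA receptor subunits, stood at 0.27 (adjusted p = 0.248) and 0.74 (adjusted p = 0.0315), and the difference did not separate the ages. The rise of Grin2a was not called in 5 of the 11 fits that left out 1 array, with the highest adjusted p, 0.0752, without P21 replicate 5. Kif5b, the general kinesin heavy chain, rose by 1.13 while the neuronal Kif5a at -0.41 was not called. A dimmer probe set of Kif5a rose by 1.13 and one of Kif5b was not called, so this pair depends on the probe set. The link proteins Hapln1 and Hapln4 both rose, and so did the buffers Calb1 and Pvalb. Map1b at 0.01 and Ina at 0.24 were not called beside rises of Map1a (1.70) and Nefh (1.36). A dimmer probe set of Map1b fell by 0.90.

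**Figure D5:**
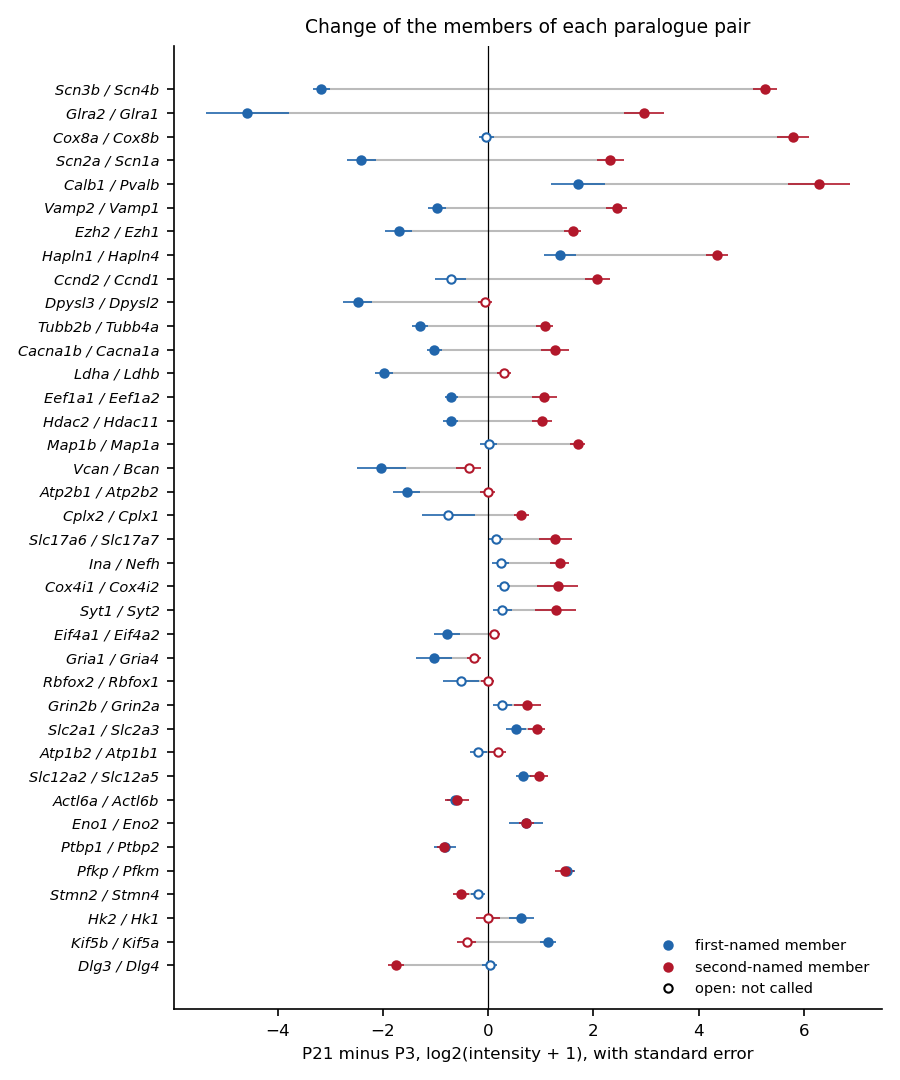
Change from P3 to P21 of both members of each of 38 paralogue pairs, on the log2(intensity + 1) scale with standard errors, the early or general member first; filled points were called and open points were not. The pair Scn3b and Scn4b lies widest apart at the top, and the pairs Kif5b and Kif5a and Dlg3 and Dlg4 at the bottom run the other way.

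Many of these genes have more than 1 tested probe set. Of the 73 named genes that do, 32 have a probe set that was called otherwise than the brightest one. Besides those given above, this holds for Aqp4, Atp2b3, Cacna1b, Cct8, Gabrd, Homer1, Impact, Kcnab2, Kcnma1, Meg3, Ncald, Pfkm, Psmc6, Rimbp2, Robo2, Smad1, Smad5, Stard4 and Thrb.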

How the data were processed

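The 20 arrays were deposited by the authors as 1 table of linear intensities per probe set, scaled so that the mean without the lowest and highest 2% of probe sets is the same on every array. The submitters' processing notes name GCRMA without a version or role, and which tool made these values is not stated there. Each array held RNA of 200 cells from 1 animal.

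Values were taken as log2(intensity + 1). Single-gene probe sets above log2 4 in at least 5 of the 11 arrays were tested (15141) with limma 3.58.1 in R 4.3.3 (lmFit, eBayes), P21 against P3, with Benjamini-Hochberg adjustment over all of them; the script was tested on simulated data. Array measures were compared with exact two-sided permutation tests over 462 regroupings (SciPy 1.17.1, Python 3.11.15). The number of arrays limits the precision. Names came from the platform annotation and the RefSeq gene table (GRCr8).

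The members and lists were chosen with earlier results of these data known. Named by rule were the 15 largest rises and falls whose higher age averaged at least log2 6, the 10 smallest p-values each way, the paralogue pairs and up to 6 genes of smallest p per list. Outside the rule, chosen after their values were seen, are Clock, Dhcr7, Dnm1, Egr1, Fkbp5, Fos, Gabra5, Gap43, Itpr1, Kcnma1, Kcnq5, Lhx2, Marcksl1, Napa, Nsf, Pdk1, Per2, Plxnc1, Psmb4, Psmb8, Rimbp2, Ryr2, Smad1, Smad5, Stmn1, Synpr, Tcp1 and Thra. Alternatives changed the filter, pseudocount, scaling, probe set summary, test, variance model, arrays and covariates. Protein sequences were not used here.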

Additional observations from a re-analysis of the deposited data

Results flagged for a closer look

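An array was singled out where its gap to the nearest other array of its age was a large share of that age's range. Chance does this in about 1 of 20 groups, and 418 groups were looked at, of which 32 were singled out, and the cause was not tested. Levels are log2(intensity + 1).

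At P3, replicate 1 stood apart in Hapln1 (3.35, low), Hspb8 (4.28, low), Nsf (8.62, low) and Impact (8.25, high). Replicate 2 was high in Gad1 (10.003) and in Ptgds (7.32). Replicate 3 was low in Myh6 (5.17). Replicate 5 was high in Egr1 (9.03) and low in Grin2a (3.32) and Sema4d (4.08). Replicate 6 was high in Meg3 (10.24) and Syt3 (8.99).

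At P21, replicate 1 was high in Cct8 (8.39) and Meis1 (9.54), low in Kif5a (8.84), and high in the 3' minus 5' difference of actin (5.51). Replicate 2 was high in Glrb (10.45), Sdha (10.10) and Psmb9 (3.70) and low in Psmd12 (9.27). Replicate 3 was high in Gls2 (9.50), Prdx5 (9.71) and Slc40a1 (8.38) and low in Grm3 (4.19), Synpr (5.24) and Vcan (3.94). Replicate 4 was high in Cdkn1c (8.50) and low in Gabrd (6.69). Replicate 5 was low in Hlf (8.67), Nefh (10.83), Scn4b (10.91) and Tsc22d3 (10.40), the array that was highest in granule cell markers.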

How the results depend on the processing

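The main count was 3492 probe sets higher and 3395 lower. Leaving out 1 array at a time gave 3143 to 3416 higher and 3064 to 3432 lower. Counts moved by over 1.5 times under 4 alternatives, as higher and lower: 1069 and 1230 with all 20 arrays sharing the variance, 459 and 475 with a test against a 2-fold threshold, 1848 and 1831 with the GAPDH 3' minus 5' difference as a covariate, and 3 and 0 with the oligodendrocyte marker mean as a covariate, whose values themselves separate the ages. The filter, pseudocount, floor, scaling, probe set, variance, Mann-Whitney and 15-array alternatives stayed within 1.5 times. Same-numbered arrays showed no strong common deviation (r -0.05 to 0.06), and whether numbers pair animals is not stated in the labels. The replicate block gave 3105 and 2964. Using the mean of a gene's probe sets reversed Clock (0.58), Kif5a (0.33) and Map1b (-0.51). List medians near 0 changed sign for calcium genes (-0.01) and glutamate receptors (-0.33) with a filter at log2 6, and for the same lists (-0.04 and -0.08) without P3 replicates 1 and 2, an alternative chosen after seeing the data. Of 190 called named genes, 186 kept their call in all 11 fits that left out an array; Grin2a, Psmb4, Psmb8 and Slc32a1 did not. The Mann-Whitney, 2-fold threshold and covariate alternatives gave counts of probe sets only, and no calls for named genes. Over every other setting 149 of the 190 kept their call. With all 20 arrays 40 lost it, among them Cacna1a, Eef1a2, Glrb, Homer1, Nsf, Rplp0 and Slc12a5. That setting also cut most lists: lower transcription factors from 31 to 13, lower cell cycle genes from 31 to 17, higher glycolysis genes from 11 to 3, higher lipid synthesis genes from 15 to 5, higher calcium genes from 17 to 5 and higher vesicle genes from 22 to 10. Small counts of 5 or fewer in a list often moved by 1 or 2 when 1 array was left out. Dim levels near log2 4 limit the size of large changes.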
